A study of Homo sapiens with 4 samples.

Results

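Cells make cholesterol and fatty acids from acetyl-CoA in pathways whose enzymes are largely switched on together, and 36 genes of these pathways were followed in PANC-1 cells after knockdown of SIRT1. The genes were chosen by symbol from the sterol and fatty acid pathways, and all 36 were listed among the 16878 genes measured. They fell into 4 roles, with 5 genes of the SREBP machinery, 18 sterol pathway enzymes, 6 genes of sterol uptake and efflux and 7 genes of fatty acid synthesis. The level required for testing, an average of 1 FPKM or more across the 4 libraries, was reached by 35 of the 36 genes and by 12191 genes in all. FPKM counts the sequenced fragments of a gene relative to the length of its transcript and to the mapped fragments of its library.

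RNA-seq was done on PANC-1, an established human pancreatic ductal cancer cell line obtained from a public cell collection. The siSIRT1 group held 2 libraries of cells transfected for 48 h with a small interfering RNA (siRNA) against SIRT1, a deacetylase that uses NAD to remove acetyl groups from histones and other proteins. The Control group held 2 libraries of cells given a control transfection for the same time, and what was transfected there is not further described in the sources used here. A single siRNA sequence is listed for SIRT1, so effects of that sequence and of the loss of SIRT1 cannot be told apart, and no source says that the 2 libraries of a group came from separate cultures, so the p-values measure the spread between these libraries, which may be technical.

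SREBP proteins are transcription factors that are held in the endoplasmic reticulum as precursors, escorted by SCAP to the Golgi when sterols are scarce, and cut there into active fragments, while INSIG proteins hold SCAP back when sterols are plentiful. SREBP-2 acts mostly on sterol genes and SREBP-1 mostly on fatty acid genes. The liver X receptors (LXR) respond to oxysterols and switch on sterol efflux and the SREBP-1 gene.

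SIRT1 itself fell from 10.46 and 10.25 FPKM in Control to 1.80 and 2.05 FPKM in siSIRT1. The siSIRT1 mean was 18.6% of the Control mean, a log2 fold change of -1.96 ± 0.11 (SE) on the log2(FPKM + 1) scale (limma, adjusted p = 1.33e-05). The siRNA sequence listed for SIRT1 is shown because it defines the treatment, with its complementary strand and, in capitals, bases 2 to 8 of that strand, the seed that can pair with other transcripts.
siRNA as listed: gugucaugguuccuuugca
complementary strand: uGCAAAGGaaccaugacac
The listed sequence matched the canonical SIRT1 transcript once, inside the coding sequence.

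The libraries were alike in depth, with an estimated 8680000 to 9120000 fragments each, and 425 genes were at 0 in all 4. Pearson's r across the tested genes on the log2 scale was 0.995 and 0.993 within the groups and 0.967 to 0.971 between them. The epithelial keratins KRT8, KRT18 and KRT19 were abundant in every library, the lowest at 313 FPKM, and KRT7 was low, at 2.89 to 4.04 FPKM. KRT8 was higher in siSIRT1, at 2745 and 2529 FPKM against 2272 and 2164 FPKM. Of the markers of blood and endothelial cells, PTPRC, PECAM1 and CDH5 were listed (3 of 4) and summed to 1.78 to 2.03 FPKM, and of those of acinar and endocrine cells 2 of 5 were listed, summing to 0.08 to 0.42 FPKM.

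Promoter windows of 300 bases, from 250 bases before to 50 bases after the transcription start, were given by RefSeq for 31 of the 36 genes on build GRCh38.p14. No window was given for FDFT1, SQLE, ACAT2, ABCG1 and FASN. The windows below belong to the strongest changes in each direction and to SREBF2, and each is written 5′ to 3′ along the gene's own strand. Capitals mark the CCAAT box (CCAAT, or ATTGG on the other strand), the GC box (GGGCGG or CCGCCC), the E-box (CACGTG, the same on both strands) and the sterol regulatory element core (TCACNCCAC or GTGGNGTGA). ELOVL6 and SCD fell most among the fatty acid genes, ABCA1 fell and STARD4 rose among the uptake and efflux genes, PMVK rose most among the sterol enzymes, and SREBF2 was the 1 gene with a match to the sterol regulatory element core.
SCD (stearoyl-CoA desaturase, chr10:100346983-100347282, plus strand): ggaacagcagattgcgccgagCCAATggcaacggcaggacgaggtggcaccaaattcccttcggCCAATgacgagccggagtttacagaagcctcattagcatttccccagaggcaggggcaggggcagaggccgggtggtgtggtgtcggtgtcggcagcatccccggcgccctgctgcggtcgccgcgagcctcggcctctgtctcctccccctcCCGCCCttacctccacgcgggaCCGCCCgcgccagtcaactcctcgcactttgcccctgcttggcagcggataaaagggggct
ELOVL6 (fatty acid elongase, chr4:110198566-110198865, minus strand): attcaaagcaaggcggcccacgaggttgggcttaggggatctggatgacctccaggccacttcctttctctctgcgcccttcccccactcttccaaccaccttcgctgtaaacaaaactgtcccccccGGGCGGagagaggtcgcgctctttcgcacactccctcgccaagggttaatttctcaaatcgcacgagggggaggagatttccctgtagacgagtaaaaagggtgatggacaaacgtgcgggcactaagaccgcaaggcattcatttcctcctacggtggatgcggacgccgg
ABCA1 (cholesterol efflux pump, chr9:104928106-104928405, minus strand): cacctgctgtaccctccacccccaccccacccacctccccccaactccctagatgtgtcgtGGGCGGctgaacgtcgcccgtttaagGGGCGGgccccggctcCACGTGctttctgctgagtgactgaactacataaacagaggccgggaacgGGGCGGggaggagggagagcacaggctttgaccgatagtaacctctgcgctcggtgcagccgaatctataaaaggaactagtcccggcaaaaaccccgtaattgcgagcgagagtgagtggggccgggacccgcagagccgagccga
STARD4 (sterol carrier, chr5:111512486-111512785, minus strand): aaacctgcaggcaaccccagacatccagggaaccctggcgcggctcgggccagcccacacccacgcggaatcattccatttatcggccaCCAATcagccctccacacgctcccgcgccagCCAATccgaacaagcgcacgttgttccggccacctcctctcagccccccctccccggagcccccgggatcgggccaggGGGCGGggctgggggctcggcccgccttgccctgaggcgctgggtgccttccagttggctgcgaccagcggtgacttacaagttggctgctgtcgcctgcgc
PMVK (phosphomevalonate kinase, chr1:154936670-154936969, minus strand): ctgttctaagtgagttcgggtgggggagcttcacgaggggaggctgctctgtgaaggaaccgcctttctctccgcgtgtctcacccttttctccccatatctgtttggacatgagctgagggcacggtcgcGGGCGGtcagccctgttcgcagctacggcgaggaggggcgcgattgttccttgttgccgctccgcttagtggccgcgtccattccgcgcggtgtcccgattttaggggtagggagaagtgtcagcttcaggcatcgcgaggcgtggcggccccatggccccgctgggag
SREBF2 (gene of SREBP-2, chr22:41832855-41833154, plus strand): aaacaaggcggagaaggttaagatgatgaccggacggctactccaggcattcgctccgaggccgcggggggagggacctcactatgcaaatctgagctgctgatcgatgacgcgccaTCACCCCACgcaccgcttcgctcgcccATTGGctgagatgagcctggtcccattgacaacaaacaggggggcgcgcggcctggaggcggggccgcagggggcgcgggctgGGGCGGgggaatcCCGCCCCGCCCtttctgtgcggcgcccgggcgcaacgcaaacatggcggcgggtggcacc
The SCD window held 2 CCAAT boxes and 2 GC boxes, the STARD4 window 2 CCAAT boxes and 1 GC box, and the ABCA1 window 3 GC boxes and 1 E-box. The ELOVL6 and PMVK windows each held 1 GC box and no CCAAT box. In SREBF2 the sterol regulatory element core read TCACCCCAC and began 133 bases before the start. Among the 31 genes, 22 (71%) held a CCAAT box against 43.1% of the 9984 tested genes with a window, and 30 (96.8%) held a GC box against 77.8%. Of the 15 sterol enzymes with a window, 13 held a CCAAT box. An E-box was in 5 of the 31 (16.1%) against 12.7%, and the sterol regulatory element core in 1 of the 31 (3.23%) against 1.47%. Among genes that changed, 4 of the 5 that rose and 5 of the 9 that fell and had a window held a CCAAT box, and all 14 held a GC box. These are matches of letters, and a window without a match says only that those letters were not within it.

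After SIRT1 knockdown the 36 genes did not move as 1 block. The desaturases and the elongase of fatty acid synthesis fell, as did the genes of both SREBP proteins, the efflux pump ABCA1 and the sterol reductase TM7SF2. PMVK and IDI1 of the mevalonate steps and the sterol carrier STARD4 rose, with less stable rises of MVK and EBP, while 19 of the 35 genes tested did not pass. Of the 35 genes tested, 5 rose (14.3%) and 11 fell (31.4%) at an adjusted p below 0.05 (limma, adjusted over all 12191 genes). Over all genes tested 37.1% passed in either direction, 24% higher and 13.1% lower, so the share of the 35 that fell was above the background and the share that rose was below it. The genes were chosen with earlier results of these data known, so this comparison is a description and not a test. The median log2 fold change was -0.05 for the 35 genes and 0.07 for all genes tested, on the log2(FPKM + 1) scale. The 2 groups of libraries did not overlap for 23 of the 35 genes, where 69% of all genes tested did not overlap.

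**Figure D1:**
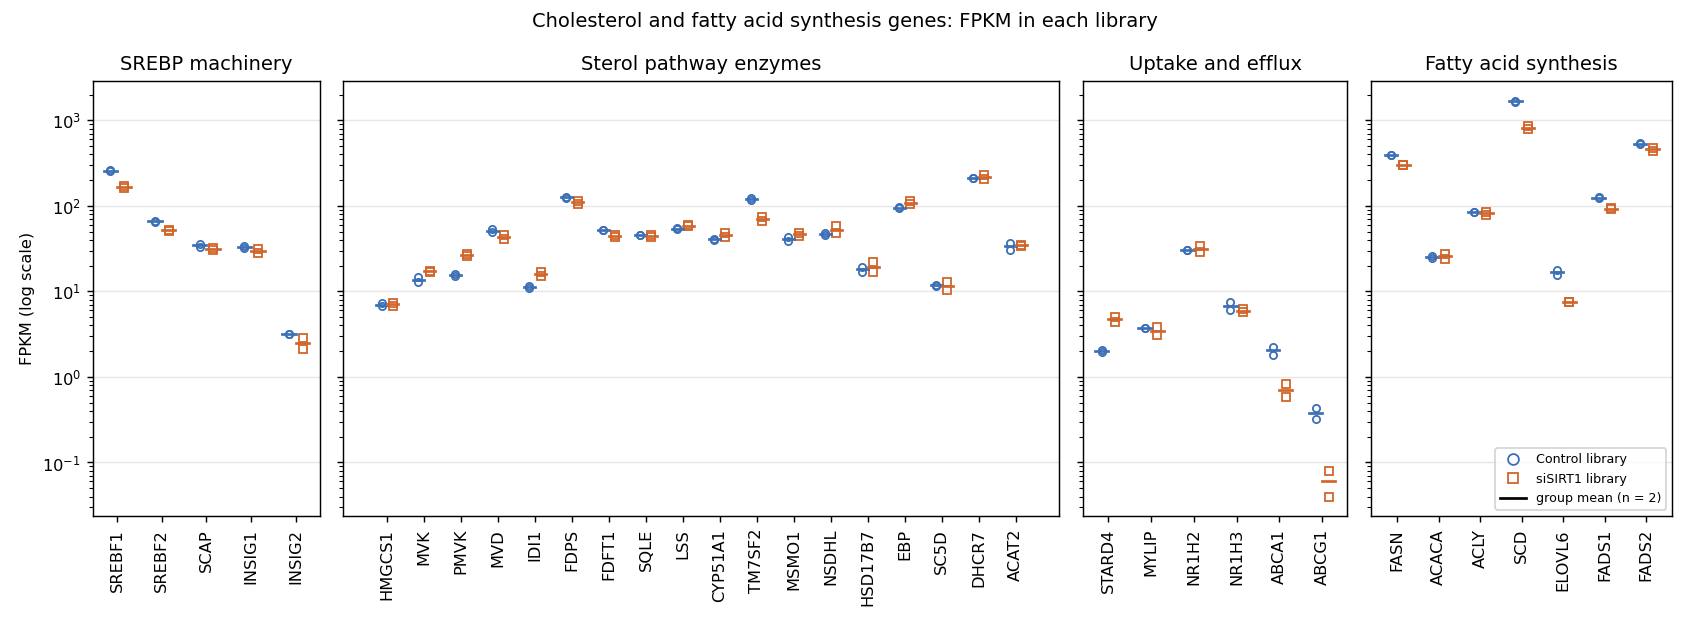
FPKM of the 36 genes on a log axis, with 1 point per library (circles Control, squares siSIRT1) and a bar at the mean of each group (n = 2), by role. SCD, the most abundant, averaged 1665 FPKM in Control and 818 FPKM in siSIRT1, while ABCG1 lay below 1 FPKM in all 4 libraries.

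Summed over the 36 genes, FPKM fell from 4257 and 4286 in Control to 3099 and 3075 in siSIRT1, or 72.3% of the Control mean. SCD alone carried much of that difference, and without it the sum was 87% of the Control mean. As a share of everything measured, the 36 genes made up 1.06% and 1.08% of the summed FPKM in Control and 0.727% and 0.753% in siSIRT1. The SD of the log2 difference between 2 libraries over the 35 genes was 0.11 within Control, 0.15 within siSIRT1 and 0.42 to 0.45 between the groups. Over all genes tested it was 0.16 within Control, 0.21 within siSIRT1 and 0.41 to 0.44 between the groups, so the spread between groups was near the background. Whether the counting used strand is not stated, so fragments of SREBF1, MVK, FDPS, CYP51A1, ACAT2, NR1H2, NR1H3, FADS1 and FADS2 may be mixed with those of listed genes that overlap them, and pseudogenes are named after FDPS, IDI1, CYP51A1, HSD17B7 and SCD. In bulk RNA, fewer expressing cells and less RNA per cell cannot be told apart.

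Fatty acid synthesis was the role with the largest share of genes that fell. Of its 7 genes, 5 fell (71.4%), 0 rose and 2 did not pass the test, where 13.1% of all genes tested fell and 24% rose. The median log2 fold change of the 7 was -0.37 on the log2(FPKM + 1) scale, and their summed FPKM was 62.8% of Control (82.3% without SCD). The genes that fell made, elongated or desaturated the acyl chain, while ACACA and ACLY, upstream of the synthase, did not pass the test.

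SCD, the desaturase that turns saturated into monounsaturated fatty acids, was the 13th most abundant of the 16878 genes in Control. It measured 1641 and 1688 FPKM in Control against 784 and 851 FPKM in siSIRT1. The groups did not overlap, and the siSIRT1 mean was 49.1% of Control, a log2 fold change of -1.03 ± 0.07 (SE, adjusted p = 3.8e-05). ELOVL6, which lengthens palmitate to stearate, the substrate of SCD, fell to a like extent. It measured 15.38 and 17.87 FPKM in Control against 7.55 and 7.59 FPKM in siSIRT1, 45.5% of Control (log2 fold change -1.04 ± 0.10, adjusted p = 0.000141).

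FASN, the synthase that builds palmitate, measured 389.56 and 389.71 FPKM in Control against 299.96 and 302.66 FPKM in siSIRT1. Its 2 Control libraries differed by less than 1 FPKM, and its siSIRT1 mean was 77.3% of Control (log2 fold change -0.37 ± 0.06, adjusted p = 0.00145). FADS1 and FADS2, the desaturases of polyunsaturated fatty acids, lie side by side on chromosome 11 and overlap in the annotation. FADS2 also overlaps the listed gene FEN1 on the same strand, and how shared fragments were assigned is not stated. FADS1 measured 126.1 and 123.0 FPKM in Control against 91.0 and 93.7 FPKM in siSIRT1, 74.1% of Control (log2 fold change -0.43 ± 0.06, adjusted p = 0.000681). FADS2 measured 536.5 and 533.4 FPKM in Control against 478.8 and 437.7 FPKM in siSIRT1, 85.7% of Control (log2 fold change -0.22 ± 0.07, adjusted p = 0.0299). The fall of FADS2 was the smaller of the pair and its call was lost without Control replicate 1 or 2 (adjusted p up to 0.284), without the filter on low values and without the mean-variance trend.

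ACACA, the carboxylase that makes malonyl-CoA, averaged 25.2 ± 0.8 FPKM in Control against 26.0 ± 2.5 FPKM in siSIRT1 (mean ± SD, n = 2, as for the averages that follow). Its log2 fold change was 0.04, with a 95% interval from -0.15 to 0.23. ACLY, which supplies cytosolic acetyl-CoA from citrate, averaged 84.1 ± 0.5 and 81.4 ± 4.5 FPKM (log2 fold change -0.05), with an interval from -0.19 to 0.09. A change of the size seen in FASN lay outside both intervals.

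**Figure D2:**
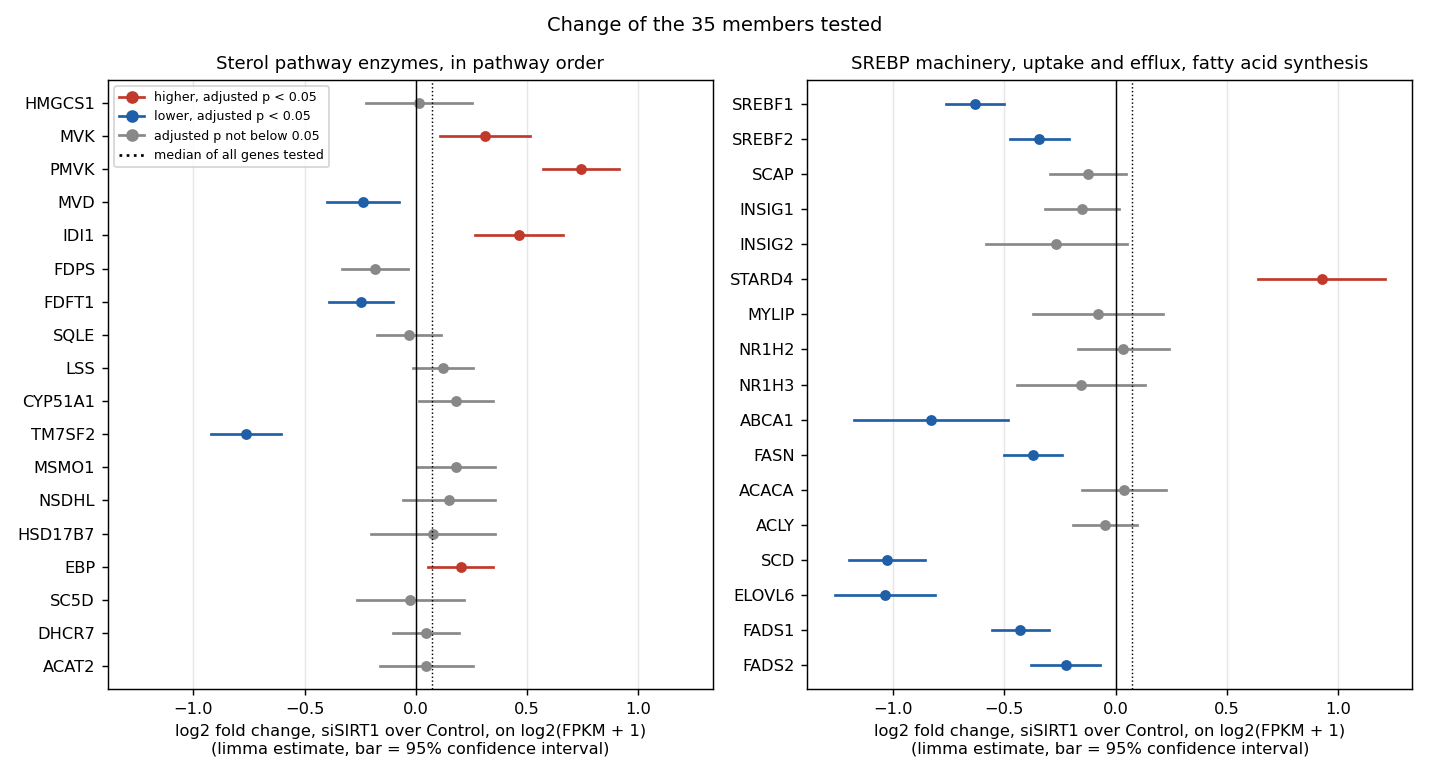
Log2 fold change of siSIRT1 over Control on the log2(FPKM + 1) scale for the 35 genes tested (points, limma estimate, bars 95% confidence interval), with sterol enzymes in pathway order on the left and the other roles on the right. Red marks the 5 genes that rose, blue the 11 that fell and grey the 19 that did not pass, and the dotted line is the median of all genes tested, 0.07.

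Both genes that encode SREBP proteins fell, which made 2 of the 5 genes of the machinery (40%), and 0 of the 5 rose. Of all genes tested, 13.1% fell and 24% rose. The fitted change was negative for all 5 genes under every scaling tried, with a median of -0.27 on the log2(FPKM + 1) scale. SREBF1, the gene of SREBP-1, measured 259.7 and 256.3 FPKM in Control against 169.8 and 162.7 FPKM in siSIRT1. The groups were far apart relative to their spread, and the siSIRT1 mean was 64.4% of Control (log2 fold change -0.63 ± 0.06, adjusted p = 0.000110). SREBF2, the gene of SREBP-2, measured 65.78 and 65.40 FPKM in Control against 51.71 and 51.32 FPKM in siSIRT1. Each pair of libraries differed by less than 1 FPKM, and the mean fell to 78.5% of Control (log2 fold change -0.34 ± 0.06, adjusted p = 0.00224).

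SCAP, the sterol sensor that escorts SREBP, averaged 34.4 ± 2.5 FPKM in Control and 31.4 ± 1.4 FPKM in siSIRT1, with an interval of the log2 fold change from -0.30 to 0.05. INSIG1, which retains SCAP and is itself an SREBP target, averaged 33.0 ± 1.3 and 29.7 ± 1.8 FPKM (log2 fold change -0.15, adjusted p = 0.140). INSIG1 passed under quantile normalization, median-of-ratios scaling and upper-quartile scaling. INSIG2, its paralogue, averaged 3.17 ± 0.03 and 2.49 ± 0.49 FPKM (log2 fold change -0.27, adjusted p = 0.170), and its siSIRT1 libraries lay at 2.14 and 2.83 FPKM.

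Of the 18 sterol pathway enzymes, 4 rose (22.2%), 3 fell (16.7%) and 11 did not pass, shares close to the 24% higher and 13.1% lower over all genes tested, and the summed FPKM in siSIRT1 was 98.2% of Control. The genes that rose were MVK, PMVK and IDI1 of the mevalonate steps and EBP of the late steps, and those that fell were MVD, FDFT1 and TM7SF2. The median log2 fold change of the 18 was 0.06, against 0.07 for all genes tested. These counts and shares hold for FPKM without further scaling. Under all 4 other scalings MVK and EBP did not pass and FDPS passed as lower. The calls over all genes moved as well, to 2023 higher and 2053 lower with median-of-ratios scaling.

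PMVK, which adds the next phosphate to phosphomevalonate, rose most. It measured 14.97 and 15.80 FPKM in Control against 25.86 and 27.02 FPKM in siSIRT1, with no overlap, 172% of Control (log2 fold change 0.74 ± 0.07, adjusted p = 0.000181). IDI1, which isomerises the isoprenoid unit, measured 11.55 and 11 FPKM in Control against 16.63 and 15.28 FPKM in siSIRT1. That was 142% of Control (log2 fold change 0.47 ± 0.09, adjusted p = 0.00357), and 3 pseudogenes are named after IDI1. MVK, the kinase before PMVK, measured 14.67 and 12.80 FPKM in Control against 17.04 and 17.43 FPKM in siSIRT1 (log2 fold change 0.31 ± 0.09, adjusted p = 0.0252). EBP, a sterol isomerase, measured 93.2 and 96.5 FPKM in Control against 113.9 and 104.7 FPKM in siSIRT1 (log2 fold change 0.20 ± 0.06, adjusted p = 0.0368). The calls of MVK and EBP were the less stable ones. Both were lost without the filter on low values, without the mean-variance trend and under all 4 other scalings, and without Control replicate 2 or siSIRT1 replicate 1; MVK was also lost without siSIRT1 replicate 2 and EBP without Control replicate 1.

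TM7SF2, which reduces the sterol ring after lanosterol demethylation, fell most among the enzymes. It measured 124.1 and 116.1 FPKM in Control against 73.6 and 67.0 FPKM in siSIRT1, 58.6% of Control with no overlap (log2 fold change -0.76 ± 0.07, adjusted p = 0.000103). The neighbouring gene VPS51 overlaps TM7SF2 on the same strand, and how shared fragments were assigned is not stated. FDFT1, squalene synthase, measured 52.78 and 51.70 FPKM in Control against 45.13 and 42.66 FPKM in siSIRT1, 84% of Control (log2 fold change -0.25 ± 0.06, adjusted p = 0.0149). MVD, which decarboxylates mevalonate diphosphate, measured 49.68 and 52.89 FPKM in Control against 45.45 and 41.25 FPKM in siSIRT1, 84.5% of Control (log2 fold change -0.24 ± 0.07, adjusted p = 0.0297). Both modest falls were lost without Control replicate 1 or 2 and without the mean-variance trend, and that of MVD also without the filter on low values and without siSIRT1 replicate 2.

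The enzymes of the mevalonate steps thus did not all move in the same direction. PMVK and IDI1 rose under every setting, and MVK rose with a less stable call. MVD, which acts between PMVK and IDI1, fell, and its call was also lost under several settings. HMGCS1, which makes HMG-CoA, averaged 6.98 ± 0.44 FPKM in Control and 7.05 ± 0.35 FPKM in siSIRT1, a log2 fold change of 0.01 with an interval from -0.23 to 0.25. FDPS, which makes farnesyl diphosphate, averaged 125 ± 4 and 110 ± 7 FPKM (log2 fold change -0.18, adjusted p = 0.0546), just short of the threshold. FDPS passed under all 4 other scalings and without siSIRT1 replicate 1, and 8 pseudogenes are named after it.

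The other enzymes of the squalene and post-squalene steps did not pass in the fit as reported. SQLE, the oxygenase that forms squalene epoxide and a rate-limiting step, averaged 45.3 ± 0.3 FPKM in Control and 44.4 ± 1.7 FPKM in siSIRT1, a log2 fold change of -0.03 with an interval from -0.17 to 0.11. LSS, which closes the sterol ring, averaged 53.7 ± 1.0 and 58.6 ± 1.3 FPKM (log2 fold change 0.12, adjusted p = 0.142). CYP51A1, the lanosterol demethylase, averaged 40.4 ± 1.4 and 45.9 ± 3.4 FPKM (0.18, adjusted p = 0.0831), and MSMO1, a sterol methyl oxidase, 40.8 ± 3.0 and 46.4 ± 2.9 FPKM (0.18, adjusted p = 0.0959). The libraries of LSS, CYP51A1 and MSMO1 did not overlap between the groups. Without siSIRT1 replicate 1 the log2 fold change of CYP51A1 was 0.25. With same-numbered libraries paired (replicate block), CYP51A1 and MSMO1 passed as higher (limma, adjusted p = 0.0261 and 0.0237). With that block 3485 of all genes tested passed as higher, against 2930 as reported. NSDHL, a sterol dehydrogenase, averaged 47.1 ± 2.0 and 52.6 ± 7.2 FPKM, and HSD17B7, a keto-sterol reductase with 2 named pseudogenes, 18.2 ± 1.8 and 19.4 ± 3.6 FPKM. NSDHL passed without siSIRT1 replicate 2 (log2 fold change 0.28, adjusted p = 0.0173). SC5D, a sterol desaturase, averaged 11.8 ± 0.2 and 11.6 ± 1.6 FPKM. DHCR7, which carries out the last reduction to cholesterol, averaged 210.3 ± 0.1 and 217 ± 15 FPKM, and ACAT2, the cytosolic thiolase that starts the pathway, 33.6 ± 4.6 and 34.6 ± 0.8 FPKM. The groups overlapped for these 5 genes, and the sign of the fitted change of HMGCS1, HSD17B7, DHCR7 and ACAT2 turned under at least 1 other scaling.

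**Figure D3:**
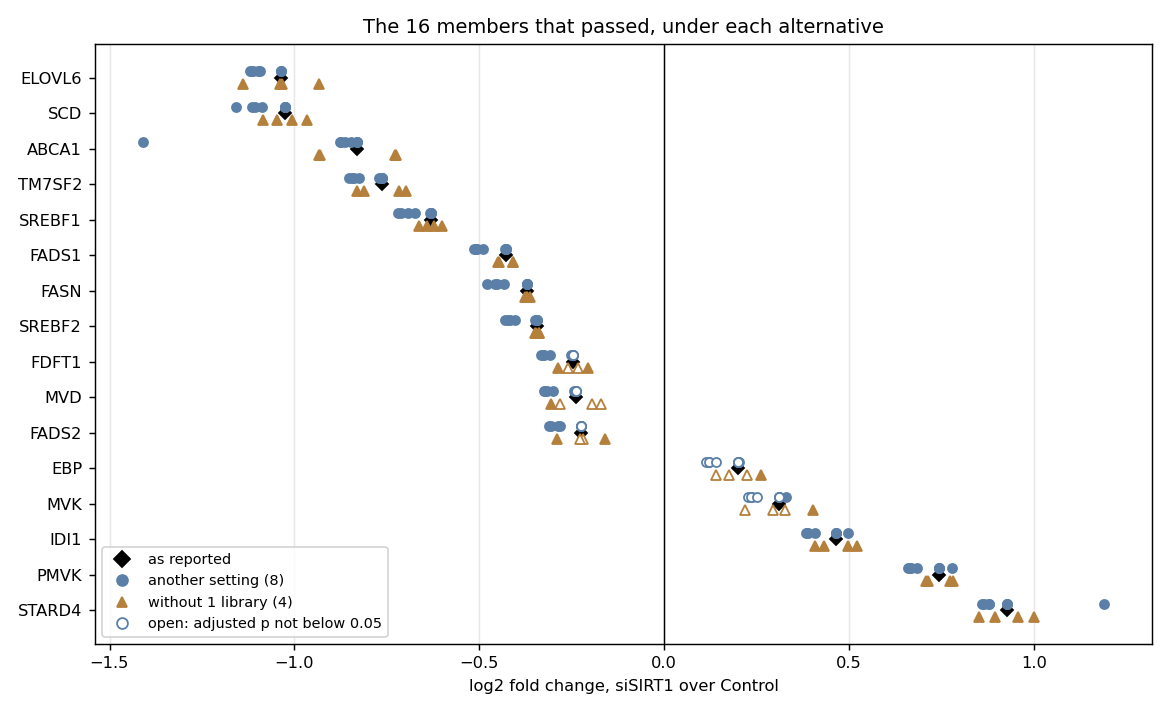
Log2 fold change, siSIRT1 over Control, of the 16 genes that passed, as reported (diamonds), under 8 other settings (circles) and without each of the 4 libraries (triangles), with open symbols where the adjusted p was not below 0.05. All symbols of a gene lie on the same side of 0, and open symbols occur for EBP, MVK, MVD, FDFT1 and FADS2.

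Among the 6 genes of uptake and efflux, the intracellular carrier rose and the efflux pump fell. STARD4, which carries cholesterol between membranes, had the largest rise of the 36 genes. It measured 1.95 and 2.08 FPKM in Control against 4.44 and 5.03 FPKM in siSIRT1, 235% of Control with no overlap (log2 fold change 0.93 ± 0.12, adjusted p = 0.000744). About 79 and 86 fragments in Control and 175 and 207 fragments in siSIRT1 lay behind these values. ABCA1, the pump that loads cholesterol onto apolipoprotein A-I, measured 1.82 and 2.26 FPKM in Control against 0.59 and 0.83 FPKM in siSIRT1. Its siSIRT1 mean was 34.8% of Control, with about 168 and 213 fragments against 53 and 78. The log2 fold change of ABCA1 was -0.83 ± 0.15 with a pseudocount of 1 FPKM (adjusted p = 0.00328) and -1.41 with a pseudocount of 0.1 FPKM.

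ABCG1, the partner pump that passes cholesterol to high-density lipoprotein, was the 1 gene below the level required for testing. It measured 0.43 and 0.32 FPKM in Control against 0.08 and 0.04 FPKM in siSIRT1, or about 11 and 8 fragments against 2 and 1. The groups did not overlap, but the siSIRT1 values lay below 3 fragments, so no fold is given.

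The sterol sensors upstream of these pumps did not pass. NR1H2, the gene of LXR-beta, averaged 30.5 ± 0.5 FPKM in Control and 31.4 ± 4.1 FPKM in siSIRT1, a log2 fold change of 0.03 with an interval from -0.17 to 0.24 whose sign turned under other scalings. NR1H3, the gene of LXR-alpha, averaged 6.78 ± 1.09 and 5.95 ± 0.38 FPKM (log2 fold change -0.16, interval from -0.44 to 0.13). MYLIP, a ubiquitin ligase switched on by LXR that degrades lipoprotein receptors, averaged 3.69 ± 0.00 and 3.46 ± 0.50 FPKM (log2 fold change -0.08, interval from -0.37 to 0.21). The groups overlapped for all 3 genes.

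Size was also set against a minimum. With the fold threshold of 1.2 and an unadjusted p below 0.001, 11 of the 35 genes passed, 3 higher and 8 lower, where 18.1% of all genes tested did. Tested against a fold of 1.2 itself (limma treat), 7 of the 35 passed at an adjusted p below 0.05. The share of all genes tested that passed treat is not given here, so this count has no background beside it. The 7 genes were PMVK and STARD4, which rose, and SREBF1, TM7SF2, ABCA1, SCD and ELOVL6, which fell.

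Other genes of the same pathways were counted from a list of 39 further genes, all of them tested. Of these, 5 rose (12.8%) and 15 fell (38.5%), where 24% and 13.1% of all genes tested did, and the median log2 fold change was -0.08 against 0.07 for all genes tested. The list was chosen with earlier results of these data known, so its shares describe it and do not test the pathway. Without Control replicate 1 or 2, which left 1 Control library, fewer of the 39 genes passed in each direction. Fewer of all genes tested passed then as well, in each direction. In the group that processes SREBP and degrades sterol-regulated proteins, 0 of 6 rose and 4 fell (66.7%). Of 7 genes on the branches of the mevalonate pathway 1 rose and 1 fell, of 8 genes of sterol transport 2 rose and 4 fell, and of 18 genes of fatty acid supply, elongation and activation 2 rose and 6 fell (33.3%). The shares that rose in these last 3 groups were 14.3%, 25% and 11.1%, near or below that over all genes tested, and the fall of 1 in 7 (14.3%) was near the background.

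The 3 largest falls were ACSL3, HSD17B12 and VLDLR. ACSL3, which activates fatty acids at lipid droplets, measured 45.49 and 46.26 FPKM in Control against 20.90 and 23.77 FPKM in siSIRT1 (log2 fold change -1.01, adjusted p = 4.9e-05). HSD17B12, the ketoacyl reductase that serves ELOVL6 and the other elongases, measured 61.00 and 64.25 FPKM in Control against 31.40 and 34.79 FPKM in siSIRT1 (-0.90, adjusted p = 5.9e-05). VLDLR, a lipoprotein receptor, measured 1.62 and 1.77 FPKM in Control against 0.58 and 0.61 FPKM in siSIRT1 (-0.76, adjusted p = 0.00326). About 132 and 147 fragments against 46 and 50 lay behind the values of VLDLR, and its log2 fold change was -1.37 with a pseudocount of 0.1 FPKM. MBTPS1 came close behind VLDLR at -0.75, and with median-of-ratios scaling it fell further (-0.84 against -0.80). ELOVL6 and its partner reductase thus both fell.

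The 3 largest rises were NPC2, ELOVL1 and DHDDS. NPC2, which moves cholesterol out of lysosomes, measured 68.19 and 64.21 FPKM in Control against 112.4 and 103.3 FPKM in siSIRT1 (log2 fold change 0.70, adjusted p = 0.000145). ELOVL1, an elongase of very long saturated chains, rose where ELOVL6 fell. It measured 96.2 and 100.9 FPKM in Control against 133.4 and 120.7 FPKM in siSIRT1 (0.36, adjusted p = 0.00355). DHDDS, which makes dolichol precursors, measured 13.08 and 13.74 FPKM in Control against 17.16 and 16.99 FPKM in siSIRT1 (0.33, adjusted p = 0.0119), a call lost without Control replicate 1 or 2.

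Chosen after their values were seen, the 4 genes that fell in the SREBP processing group were MBTPS1, MBTPS2, ERLIN1 and ERLIN2. MBTPS1, the site-1 protease that makes the first cut in SREBP, measured 52.42 and 54.54 FPKM in Control against 30.39 and 32.19 FPKM in siSIRT1 (log2 fold change -0.75, adjusted p = 8.8e-05). MBTPS2, the site-2 protease that makes the second cut, measured 8.42 and 9.76 FPKM in Control against 5.52 and 6.24 FPKM in siSIRT1 (-0.55, adjusted p = 0.00589), a call lost without Control replicate 2. Both proteases thus fell beside both SREBP genes. ERLIN1 and ERLIN2, which bind SREBP and INSIG in the endoplasmic reticulum, changed by -0.35 and -0.38 (adjusted p = 0.00358 and 0.0176), with the call of ERLIN1 lost without Control replicate 1 and that of ERLIN2 without either Control replicate.

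**Figure D4:**
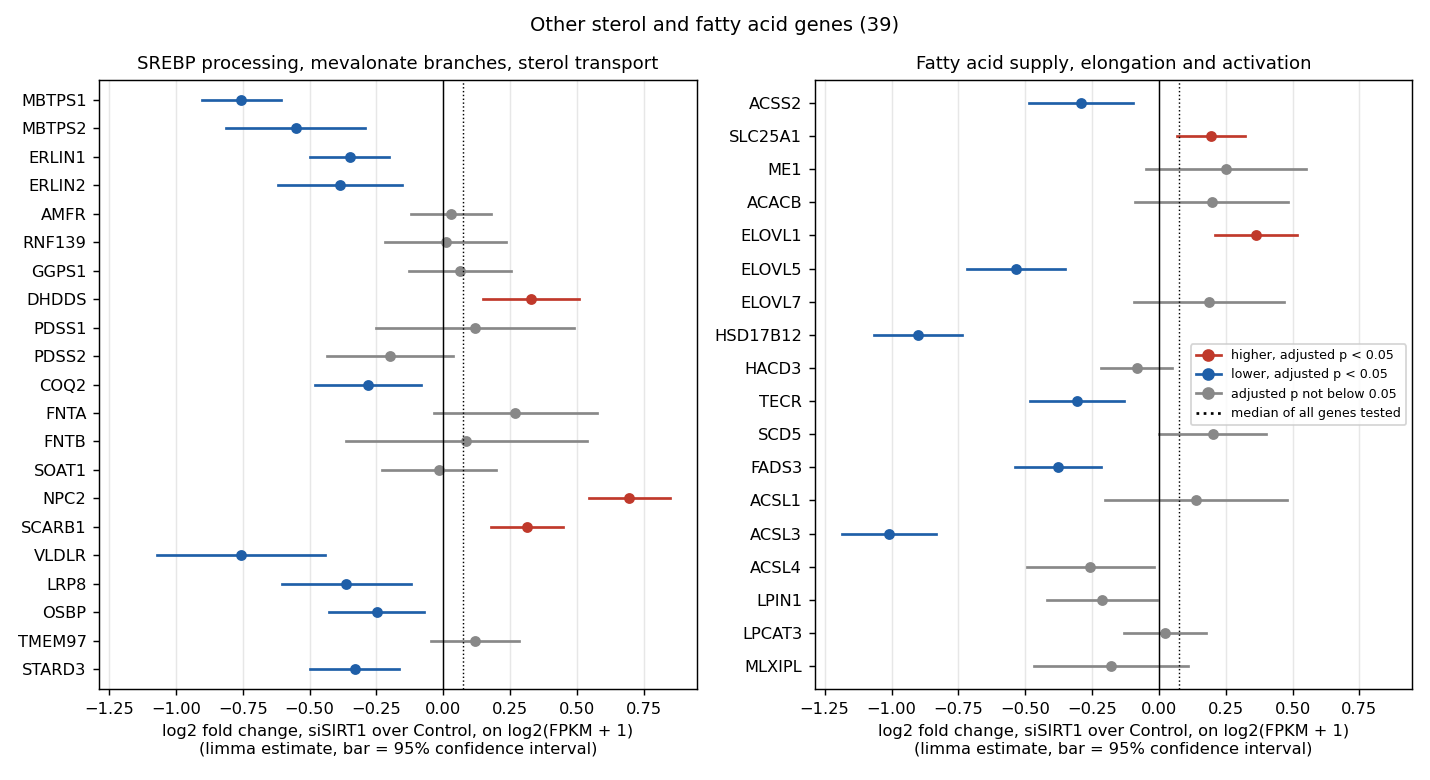
Log2 fold change of siSIRT1 over Control on the log2(FPKM + 1) scale for the 39 further sterol and fatty acid genes (points, limma estimate, bars 95% confidence interval). Red marks the 5 that rose and blue the 15 that fell, with MBTPS1, VLDLR, HSD17B12 and ACSL3 farthest to the left and NPC2 farthest to the right.

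Sites for the siRNA seed were looked up in 3′ UTRs, since a strand of an siRNA can pair with other transcripts through its seed. The site for the complementary strand, CCTTTGC, was in the 3′ UTR of 4 of the 36 genes, LSS, ABCA1, SCD and FADS1, and in 15.6% of the 11932 tested genes with a 3′ UTR. Among the 11 genes that fell it was in 3 (27.3%), ABCA1, SCD and FADS1, against 16.05% of all tested genes that fell. Among the 5 that rose it was in 0. The median 3′ UTR was 1645 bases for the 11 genes that fell and 1305 bases for all genes tested. The site for the listed strand, CATGACA, was in ABCA1, ACACA and ELOVL6, 3 of the 36, against 10.2%. Among the 11 that fell it was in 2 (18.2%), against 10.55% of all tested genes that fell. Neither site was found in the other genes that fell, SREBF1, SREBF2, FASN, TM7SF2, MVD, FDFT1 and FADS2. The part of such sites in the falls was not tested.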

How the data were processed

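Total RNA of 4 PANC-1 libraries (2 Control, 2 siSIRT1, 48 h) was sequenced, and the authors deposited 1 table per library of FPKM values rounded to 2 decimals for 16878 genes, with no counts. The submitters' processing notes name Bowtie2, HISAT, RSEM and ChIPseeker without roles for this assay; the genome build, strand use and treatment of shared fragments are not given in the sources used here. FPKM is relative to a library's total, so a few abundant genes can shift all others. Depth was estimated from the steps of 1 fragment in low FPKM values of single-exon genes, and intervals and floors from it cover counting error only.

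Values were transformed as log2(FPKM + 1), the 12191 genes averaging 1 FPKM or more were kept, and all were fitted with limma 3.58.1 in R 4.3.3 (lmFit, eBayes with a mean-variance trend). Tests were two-sided, with Benjamini-Hochberg adjustment over all genes tested and a threshold of 0.05. Fold changes on this scale understate those of weak genes. The fit was tested on simulated data. Alternatives were a pseudocount of 0.1 FPKM, no filter, quantile, median-of-ratios and upper-quartile scaling, equal FPKM sums, a replicate block, no trend, leaving out each library, a fold above 1.2 with an unadjusted p below 0.001, and treat in limma with a fold of 1.2. Named genes are SIRT1, the 36 genes, and the 3 largest rises and falls of the further list that passed, plus 4 of that list picked with their values in view. The members and lists were chosen with earlier results of these data known. Identifiers were matched to RefSeq names (GRCh38.p14, 16846 of 16878), overlaps and 3′ UTRs came from GENCODE release 44 on GRCh37, and promoter windows from RefSeq.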

Additional observations from a re-analysis of the deposited data

How the results depend on the processing

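The number of the 36 genes that rose, 5 as reported, was 3 without the filter on low values, under quantile normalization, median-of-ratios scaling, upper-quartile scaling and equal FPKM sums, without the mean-variance trend, and with a fold above 1.2 and an unadjusted p below 0.001; it was 2 with treat against a fold of 1.2 and 3 to 5 without 1 library. The number that fell, 11 as reported, was 5 with treat, 8 to 12 without 1 library and 8 to 13 otherwise (10 without the filter, ABCG1 included). In the further list, 5 rose and 15 fell as reported, and without 1 library 2 to 6 rose and 7 to 16 fell, lowest without a Control library. Where a group was left with 1 library, that library was assumed to vary like the other group. Under the 8 other settings and without each library, 3 of the 5 rises (PMVK, IDI1, STARD4) and 8 of the 11 falls (all but MVD, FDFT1 and FADS2) were kept, and no call changed sign. The cause was not tested. Scaling moved the median of all genes by at most 0.08 on the log2 scale, but the split of calls over all genes from 2930 higher and 1591 lower to 2023 higher and 2053 lower with median-of-ratios scaling. The replicate numbers are shared only as numbers, and the correlation of same-numbered deviations was 0.123 over 2 pairs. With the replicate block 7 rose and 12 fell, all 16 called genes among them, with CYP51A1 and MSMO1 added to the rises and FDPS to the falls. Calls over all genes tested grew with the block as well, from 2930 higher and 1591 lower to 3485 higher and 1908 lower. SIRT1 passed under every setting, at -2.37 to -1.90. At this depth ABCG1 was at the limit of detection in siSIRT1, and with 2 libraries a group a missed threshold does not show equal levels.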
